A study of Mus musculus with 19 samples.

Results

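The cytosolic ribosomal protein genes encode the proteins of the 40S and 60S subunits of the ribosome in the cytoplasm. They were chosen here by gene symbol: RPS or RPL with a number and at most 1 of the letters A, X, L or Y, the 3 acidic stalk genes RPLP0 to RPLP2, and RPSA. Of 80 symbols of this form in the table, 78 had a value of at least 1 in at least 3 of the 19 libraries and are the members described below, out of 19486 named genes and 13253 tested genes. The small subunit contributed 31 members and the large subunit 47. The libraries were made from mouse liver tumors labelled as hepatocellular carcinoma (HCC). MYC_Twist1_OFF, MYC_Recur and MYC_OFF had 3 libraries each, MYC_Twist1_HCC and MYC_HCC 5 each.

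Group names are given as the labels write them, and the title of the series calls the tumors MYC driven. The labels state no allele, promoter, inducing drug, animal age or time point for any group, nor whether each library is from its own animal, so the tests measure only how these libraries spread. The titles mark the 10 libraries of the HCC groups as re-analyzed, and the other 9 carry no such mark. Group and a batch that this mark may stand for therefore cannot be told apart where an HCC group is compared with MYC_OFF, MYC_Recur or MYC_Twist1_OFF. MYC_Recur and MYC_Twist1_OFF against MYC_OFF lay within the unmarked libraries, and MYC_Twist1_HCC against MYC_HCC within the marked ones.

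Deposited normalized values summed to between 507868 and 690310 per library, and sequencing depth is unknown. Myc lay between 32.6 and 45.7 in MYC_Twist1_OFF, 152.4 and 158.6 in MYC_Recur, 33.9 and 59.8 in MYC_OFF, 102.1 and 153.0 in MYC_Twist1_HCC, and 128.5 and 180.5 in MYC_HCC. The OFF libraries thus did not overlap the others for Myc. Twist1 was at most 0.27 in every library, so directions between groups with and without Twist1 in their name rest on the labels. The 8 hepatocyte markers in the table, of 9 listed, summed to 1420 to 1490 in MYC_Twist1_OFF, 5160 to 6820 in MYC_Recur, 1370 to 2030 in MYC_OFF, 3810 to 5920 in MYC_Twist1_HCC and 6650 to 12500 in MYC_HCC, and none was at 0 in a whole group. MYC_HCC 4 had the lowest Myc value and the lowest member share of its group. MYC_HCC 5 stood apart in neither (Myc 165.9, member share 20.3%). Rpl34, named after its values were seen, was 85.4 and 116.8 in MYC_HCC 4 and 5, against at most 32.5 in every other library. Counts that rest on MYC_HCC are also given without MYC_HCC 4 and 5 where they change.

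Each ribosome carries a single copy of nearly every ribosomal protein, and cells make the proteins in matched amounts; surplus protein is degraded. Ribosomal protein mRNAs begin with a terminal oligopyrimidine (TOP) tract, a C followed by a run of C or T, through which mTOR signalling controls their translation. MYC drives ribosome production at several steps, including transcription of ribosomal protein genes, and large nucleoli are a long-known feature of hepatocellular carcinoma. The levels measured here are of mRNA only.

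RefSeq promoter windows of GRCm38.p6 were found for 58 of the 78 members, each 250 bases before to 50 after the annotated start. The annotated start itself was a C followed by at least 4 C or T in 13 of the 58 (22.4%), against 3.01% of all 27025 genes with such a window. Allowing the tract to begin within 10 bases of the start gave 36 of 58 (62.1%), against 34.4% of all genes. The letters CCGGAAG, a core bound by ETS-family factors, were found on either strand in 24 of 58 windows (41.4%), against 9.93% of all genes. CACGTG, the E-box that MYC and its partner MAX bind, was in 6 of 58 (10.3%), against 8.09% of all genes. ATGGCGGC, part of the YY1 site, was in 4 of 58 (6.9%), against 2.6%. These are matches of letters only. The windows below show the start regions of 3 members that were higher in MYC_OFF than in MYC_HCC (Rps9, Rpl28 and Rpl27a) and 2 that were lower (Rpl31 and Rplp2). Each runs from 80 bases before to 20 bases after the annotated start on the plus strand, and capitals mark the unbroken run of C and T across the start.
Rps9, chr7:3703961-3704060: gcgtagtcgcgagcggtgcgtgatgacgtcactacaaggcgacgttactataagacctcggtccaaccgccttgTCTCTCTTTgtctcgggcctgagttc
Rpl28, chr7:4792885-4792984: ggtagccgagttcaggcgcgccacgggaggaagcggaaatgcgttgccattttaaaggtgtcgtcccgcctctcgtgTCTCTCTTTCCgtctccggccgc
Rpl27a, chr7:109519115-109519214: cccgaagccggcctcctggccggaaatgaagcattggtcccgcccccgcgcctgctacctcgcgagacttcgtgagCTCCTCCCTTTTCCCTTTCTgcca
Rpl31, chr1:39367771-39367870: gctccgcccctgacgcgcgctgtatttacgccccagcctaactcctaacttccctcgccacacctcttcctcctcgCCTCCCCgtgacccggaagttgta
Rplp2, chr7:141447571-141447670: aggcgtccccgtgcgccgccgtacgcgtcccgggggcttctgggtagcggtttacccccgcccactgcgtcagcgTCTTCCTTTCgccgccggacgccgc

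The run was 9 bases in Rps9, 11 in Rpl28, 20 in Rpl27a, 7 in Rpl31 and 10 in Rplp2, so both directions of difference occurred among genes with such a run. Among members with a window, the start was a C followed by at least 4 C or T in 1 of 7 called higher in MYC_OFF, 10 of 39 called lower and 2 of 12 not called. Allowing the tract to begin within 10 bases of the start gave 4 of 7 (57.1%), 22 of 39 (56.4%) and 10 of 12 (83.3%). CCGGAAG was in 2 of 7, 16 of 39 and 6 of 12 of these sets.

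Most ribosomal protein genes were lower in the OFF tumors than in their HCC counterparts, while a small set was many times higher. In MYC_OFF against MYC_HCC, 55 of 78 members fell and 9 rose, where 39.4% and 18.9% of all 13253 tested genes did so (limma, Benjamini-Hochberg adjusted p under 0.05). The median log2 fold change over members was -1.39, against -0.38 over all tested genes. In MYC_Twist1_OFF against MYC_Twist1_HCC, which shares no library with the first comparison, 59 members fell and 6 rose, where 33.5% and 13.1% of all tested genes did so. The medians were -1.47 over members and -0.32 over all tested genes. The 6 members that rose in both included Rps19, Rps9, Rpl28, Rps14 and Rps25. A further 54 fell in both and 0 were called in opposite directions. How many of all tested genes were called alike in both was not counted, so these joint counts have no background beside them.

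Scaling changed the counts and no sign: 0 called members changed sign under the 3 scalings tried. Median-of-ratios scaling brought the median of all tested genes to 0.08 in MYC_OFF against MYC_HCC and left the members' median at -0.82. It called 10 members higher and 38 lower, and 3943 of all tested genes higher and 3537 lower. In MYC_Twist1_OFF against MYC_Twist1_HCC this scaling gave 9 members higher and 47 lower, and 2946 of all tested genes higher and 2770 lower. The medians there were -1.03 over members and 0.03 over all tested genes.

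**Figure D1:**
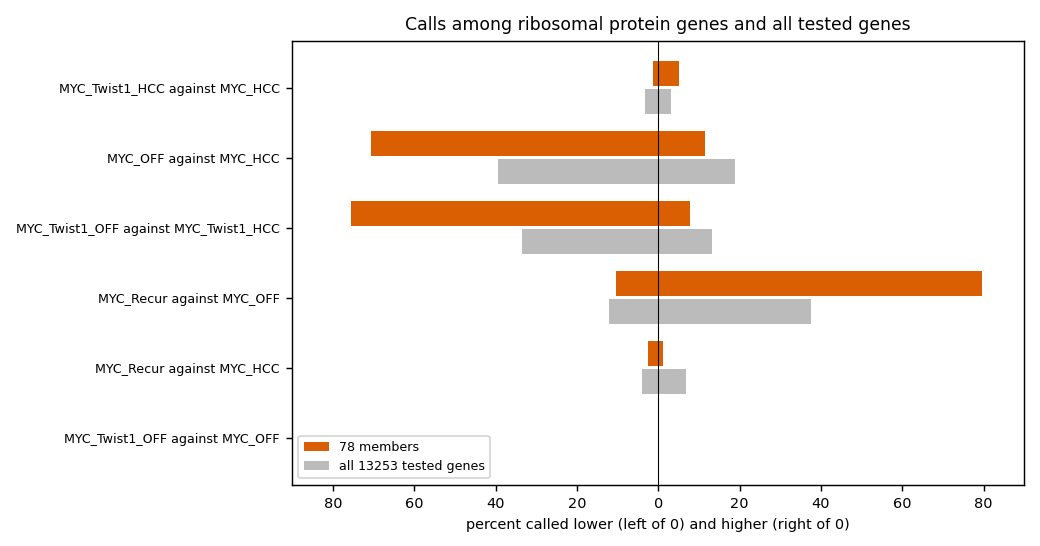
Percent of the 78 members (orange) and of all 13253 tested genes (grey) called lower, left of 0, and higher, right of 0, in 6 comparisons. Members lay beyond the background on the lower side in both OFF comparisons (70.5% and 75.6%) and on the higher side in MYC_Recur against MYC_OFF (79.5%); in MYC_Twist1_OFF against MYC_OFF no member was called.

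Rps19 (chr7:24884371-24889806, GRCm38), a 40S protein needed to mature the small subunit's rRNA and the gene most often mutated in Diamond-Blackfan anemia in human, showed the widest difference. Its deposited values were 50636, 28733 and 28889 in MYC_Twist1_OFF, 843, 1911 and 446 in MYC_Recur, 26471, 32923 and 65239 in MYC_OFF, 8097, 9142, 5761, 1656 and 7282 in MYC_Twist1_HCC, and 1439, 458, 980, 849 and 1260 in MYC_HCC. Every OFF library was above every other library, and every MYC_Twist1_HCC library was above every MYC_HCC library. Rps19, Rps9, Rps14, Rpl28, Rps25, Rpl23a and Rpl31 were named for small adjusted p on these same libraries. Separation between groups in these genes is therefore a description and no further evidence. The log2 fold change was 5.37 in MYC_OFF against MYC_HCC (SE 0.561, adjusted p = 5.36e-07) and 2.65 in MYC_Twist1_OFF against MYC_Twist1_HCC (SE 0.561, adjusted p = 0.000944).

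Rps9 (chr7:3703993-3706897), a 40S protein at the mRNA entry side, had 16670, 16264 and 21855 in MYC_Twist1_OFF, 1072, 1373 and 1006 in MYC_Recur, 11646, 15907 and 21825 in MYC_OFF, 5741, 6054, 4159, 3354 and 8018 in MYC_Twist1_HCC, and 1646, 740, 1479, 949 and 1382 in MYC_HCC. As for Rps19, no OFF library overlapped either HCC group. Its log2 fold change was 3.74 in MYC_OFF against MYC_HCC (SE 0.339, adjusted p = 1.64e-07) and 1.79 in MYC_Twist1_OFF against MYC_Twist1_HCC (SE 0.339, adjusted p = 0.000372).

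Rps14, whose loss causes the anemia of the human 5q- syndrome, had 16113, 11661 and 11351 in MYC_Twist1_OFF, 2234, 2089 and 1965 in MYC_Recur, 22655, 16365 and 10935 in MYC_OFF, 3876, 2659, 3306, 3716 and 5425 in MYC_Twist1_HCC, and 2301, 1958, 3179, 706 and 1215 in MYC_HCC. The lowest OFF library was again above the highest HCC library, which is a description as for Rps19. The log2 fold change was 3.27 in MYC_OFF against MYC_HCC (adjusted p = 2.8e-06) and 1.80 in MYC_Twist1_OFF against MYC_Twist1_HCC (adjusted p = 0.00153).

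Rpl28 (chr7:4792874-4795066), a 60S protein with no counterpart in budding yeast, had 14082, 6401 and 11539 in MYC_Twist1_OFF, 690, 383 and 169 in MYC_Recur, 13212, 9864 and 11563 in MYC_OFF, 3025, 3743, 2686, 2759 and 5687 in MYC_Twist1_HCC, and 2038, 857, 1758, 1202 and 1673 in MYC_HCC. All 5 groups except MYC_Twist1_OFF and MYC_OFF were separate from each other. The log2 fold change was 2.99 in MYC_OFF against MYC_HCC (adjusted p = 9.36e-06) and 1.56 in MYC_Twist1_OFF against MYC_Twist1_HCC (adjusted p = 0.00528).

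Rps25, a 40S protein used by viral internal ribosome entry sites, had 4015, 3182 and 4873 in MYC_Twist1_OFF, 734, 551 and 398 in MYC_Recur, 1760, 3840 and 3707 in MYC_OFF, 1774, 992, 1856, 1373 and 1594 in MYC_Twist1_HCC, and 1017, 810, 917, 540 and 773 in MYC_HCC. MYC_OFF 1 fell within the MYC_Twist1_HCC range but above every MYC_HCC library. Its log2 fold change was 1.88 in MYC_OFF against MYC_HCC (adjusted p = 6.62e-05) and 1.42 in MYC_Twist1_OFF against MYC_Twist1_HCC (adjusted p = 0.00138).

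Rpl27a, Rpl24 and Rpl10, all 60S proteins, were called higher in MYC_OFF against MYC_HCC alone, with log2 fold changes of 1.97 (adjusted p = 3.32e-05), 1.69 (adjusted p = 0.00166) and 1.07 (adjusted p = 0.0146). In MYC_Twist1_OFF against MYC_Twist1_HCC they had log2 fold changes of 0.63, 0.86 and 0.56 and missed the threshold (adjusted p = 0.0988, 0.09 and 0.202). Rpl10 was uneven within MYC_OFF, with 5910, 2035 and 1814. Rpl24 and Rpl10 were named after their values were seen.

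**Figure D2:**
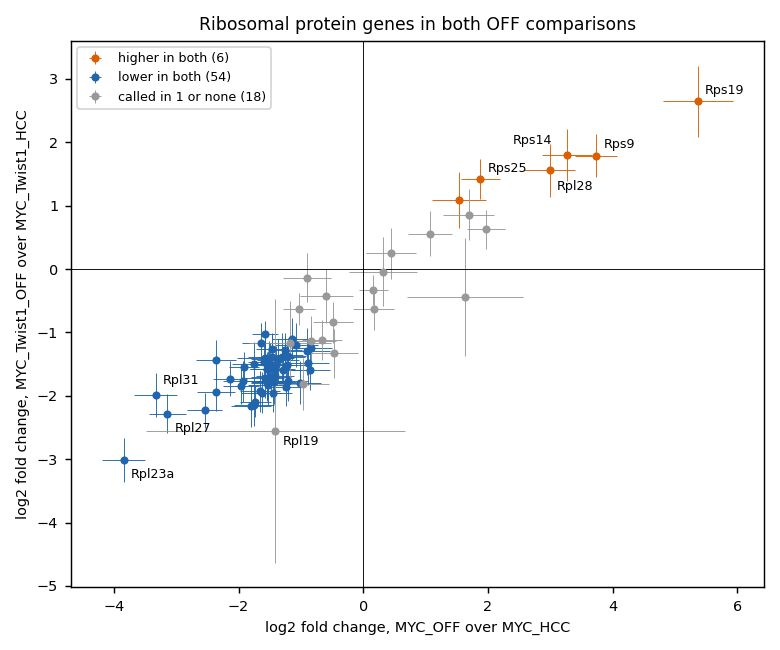
Log2 fold change of each of the 78 members in MYC_Twist1_OFF over MYC_Twist1_HCC (vertical axis) and MYC_OFF over MYC_HCC (horizontal axis), with bars of 1 SE. Rps19, Rps9, Rpl28, Rps14 and Rps25 lie at the upper right, Rpl23a at the lower left (-3.01 and -3.84), and most members in 1 cloud below 0 on both axes.

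Rpl23a (chr11:78180932-78183584), a 60S protein at the peptide exit tunnel that contacts the signal recognition particle, fell furthest. It had 296, 251 and 360 in MYC_Twist1_OFF, 2877, 2546 and 4206 in MYC_Recur, 517, 151 and 170 in MYC_OFF, 2329, 2164, 2273, 3795 and 1890 in MYC_Twist1_HCC, and 3882, 3200, 3275, 2913 and 3813 in MYC_HCC. Every OFF library lay far below every other library. The log2 fold change was -3.84 in MYC_OFF against MYC_HCC (SE 0.343, adjusted p = 1.49e-07) and -3.01 in MYC_Twist1_OFF against MYC_Twist1_HCC (SE 0.343, adjusted p = 3.88e-06).

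Rpl31 (chr1:39367842-39371911), also near the exit tunnel, had 51.5, 41.0 and 32.1 in MYC_Twist1_OFF, 240, 265 and 472 in MYC_Recur, 66.1, 27.2 and 30.7 in MYC_OFF, 163, 139, 252, 222 and 97.0 in MYC_Twist1_HCC, and 388, 277, 400, 363 and 599 in MYC_HCC. OFF libraries were again the lowest, and MYC_Twist1_HCC lay below MYC_HCC with no overlap. The log2 fold change was -3.33 in MYC_OFF against MYC_HCC (adjusted p = 5.24e-07) and -1.99 in MYC_Twist1_OFF against MYC_Twist1_HCC (SE 0.347).

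The 60S genes Rpl27, Rpl21 and Rpl36a were among the 4 lower members with the smallest adjusted p in at least 1 OFF comparison. Rpl27 lay between 69.1 and 85.5 in MYC_Twist1_OFF and between 46.6 and 126.8 in MYC_OFF, against 242 to 527 in MYC_Twist1_HCC and 423 to 771 in MYC_HCC. Rpl21 lay between 128 and 149 in MYC_Twist1_OFF and 86.5 and 248 in MYC_OFF, against 524 to 739 in MYC_Twist1_HCC and 720 to 1085 in MYC_HCC. Rpl36a lay between 364 and 573 in MYC_Twist1_OFF and 447 and 832 in MYC_OFF, against 1567 to 2439 in MYC_Twist1_HCC and 1555 to 2381 in MYC_HCC. None of these OFF ranges overlapped its HCC range, in genes picked for their small adjusted p on the same libraries. The log2 fold changes of Rpl27, Rpl21 and Rpl36a were -3.14, -2.54 and -1.73 in MYC_OFF and -2.28, -2.23 and -2.09 in MYC_Twist1_OFF against their HCC groups. Rpl21 has 56 near-identical copies in the annotation, so reads of it may have been divided between genes.

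The stalk recruits elongation factors to the ribosome. Its genes Rplp0, Rplp1 and Rplp2 and the base protein Rpl12 were 4 of 4 lower in both OFF comparisons. Of all tested genes, 39.4% were lower in MYC_OFF against MYC_HCC and 33.5% in MYC_Twist1_OFF against MYC_Twist1_HCC. Rplp0 had 1020, 607 and 826 in MYC_Twist1_OFF, 2003, 2937 and 3151 in MYC_Recur, 1606, 644 and 731 in MYC_OFF, 1695, 1613, 2148, 2240 and 1621 in MYC_Twist1_HCC, and 2142, 1970, 3182, 1094 and 1778 in MYC_HCC. MYC_OFF 1 overlapped the MYC_HCC range. Its log2 fold change was -1.07 in MYC_OFF against MYC_HCC (adjusted p = 0.0121) and -1.20 in MYC_Twist1_OFF against MYC_Twist1_HCC (adjusted p = 0.00821). Both calls were lost under median-of-ratios and upper-quartile scaling, and the first also without MYC_OFF 2 or MYC_OFF 3 (adjusted p up to 0.25 over all alternatives).

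Rplp1 had 650, 413 and 550 in MYC_Twist1_OFF, 1770, 2026 and 2560 in MYC_Recur, 1067, 420 and 571 in MYC_OFF, 1483, 1403, 1953, 1784 and 1378 in MYC_Twist1_HCC, and 1917, 1798, 2335, 1534 and 1765 in MYC_HCC. Rplp2 (promoter shown above) had 428, 363 and 447 in MYC_Twist1_OFF, 1804, 2405 and 2873 in MYC_Recur, 1018, 413 and 371 in MYC_OFF, 1646, 1596, 2169, 2059 and 1787 in MYC_Twist1_HCC, and 2139, 2064, 2750, 1093 and 1727 in MYC_HCC. For both, each OFF group lay below its HCC group without overlap. Log2 fold changes of Rplp1 and Rplp2 were -1.54 and -1.80 in MYC_OFF (adjusted p = 0.00014 and 0.000152) and -1.58 and -2.16 in MYC_Twist1_OFF against their HCC groups.

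Rpsa, a 40S protein also known as the laminin receptor precursor, had 473, 324 and 386 in MYC_Twist1_OFF, 1423, 1675 and 2344 in MYC_Recur, 739, 302 and 331 in MYC_OFF, 1093, 1078, 1457, 1487 and 1227 in MYC_Twist1_HCC, and 1305, 1145, 1525, 711 and 1118 in MYC_HCC. The ranges of MYC_OFF and MYC_HCC touched only through MYC_OFF 1 and MYC_HCC 4. Its log2 fold change was -1.42 in MYC_OFF (adjusted p = 0.000658) and -1.69 in MYC_Twist1_OFF (adjusted p = 0.000241) against their HCC groups.

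Called members of the other role groups were mostly lower. Over all tested genes, 39.4% were lower and 18.9% higher in MYC_OFF against MYC_HCC. The shares were 33.5% and 13.1% in MYC_Twist1_OFF against MYC_Twist1_HCC. Rpl5 and Rpl11, which bind 5S rRNA and restrain Mdm2 when ribosome assembly stalls, were 2 of 2 lower in both OFF comparisons, with log2 fold changes of -1.14 and -1.55 in MYC_OFF and -1.10 and -1.76 in MYC_Twist1_OFF against their HCC groups. Of 8 proteins around the peptide exit tunnel, 6 were lower in both and Rpl19 and Rpl26 were not called. Rpl26 lay between 4.67 and 23.71 over all libraries, where the median member of a library was at 406 or more. Rps27a, made as a fusion to ubiquitin, fell by 1.52 in MYC_OFF and by 1.83 in MYC_Twist1_OFF on the log2 scale. Of 11 members mutated in human Diamond-Blackfan anemia, 6 were lower and Rps19 was higher in MYC_OFF against MYC_HCC, and 8 were lower and Rps19 higher in MYC_Twist1_OFF against MYC_Twist1_HCC. By subunit, 23 of 31 small-subunit members were lower and 4 higher in MYC_OFF, and 32 of 47 large-subunit members were lower and 5 higher. In MYC_Twist1_OFF these counts were 25 lower and 4 higher, and 34 lower and 2 higher.

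Paralogs with narrower expression differed in whether they were detected. Rps27l, a paralog of Rps27 and a p53 target, had 118, 200 and 137 in MYC_Twist1_OFF, 338, 192 and 534 in MYC_Recur, 128, 59.1 and 72.3 in MYC_OFF, 347, 363, 461, 486 and 359 in MYC_Twist1_HCC, and 480, 510, 510, 290 and 374 in MYC_HCC. OFF libraries lay below HCC libraries without overlap, with a log2 fold change of -2.36 in MYC_OFF (adjusted p = 6.44e-06) and -1.43 in MYC_Twist1_OFF (adjusted p = 0.00134). Rpl10l, which is expressed mainly in testis, had 0.32, 3.35 and 0.33 in MYC_Twist1_OFF, 0.43, 0.05 and 0.05 in MYC_Recur, 0.05, 0.41 and 0.73 in MYC_OFF, 2.53, 1.42, 0.14, 0.10 and 0.15 in MYC_Twist1_HCC, and a highest value of 0.05 in MYC_HCC. It passed the level filter through 3 libraries only and was called in none of the comparisons. Just outside the filter, the testis paralog Rpl39l was listed at 0 except for 1.74 in MYC_Twist1_HCC 5, and the muscle paralog Rpl3l was at most 0.20.

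Rpl19 was listed at 0 in MYC_Twist1_OFF 3 and MYC_Twist1_HCC 3 and otherwise lay between 376 and 3095. Since every cell uses this gene, a 0 may be a failed estimate. The fit shares 1 spread over the 5 groups, so these 0s also widened MYC_OFF against MYC_HCC, whose libraries hold none. A standard error of 2.08 left Rpl19 uncalled in both OFF comparisons. Over the alternatives its adjusted p ran from 0.00906 to 0.776 in MYC_OFF against MYC_HCC and from 0.0124 to 0.875 in MYC_Twist1_OFF against MYC_Twist1_HCC. Its other values were 660 and 376 in MYC_Twist1_OFF, 1296, 548 and 644 in MYC_OFF, 2078, 1746, 1522 and 1209 in MYC_Twist1_HCC, and 2172, 1903, 2687, 1446 and 2223 in MYC_HCC.

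**Figure D3:**
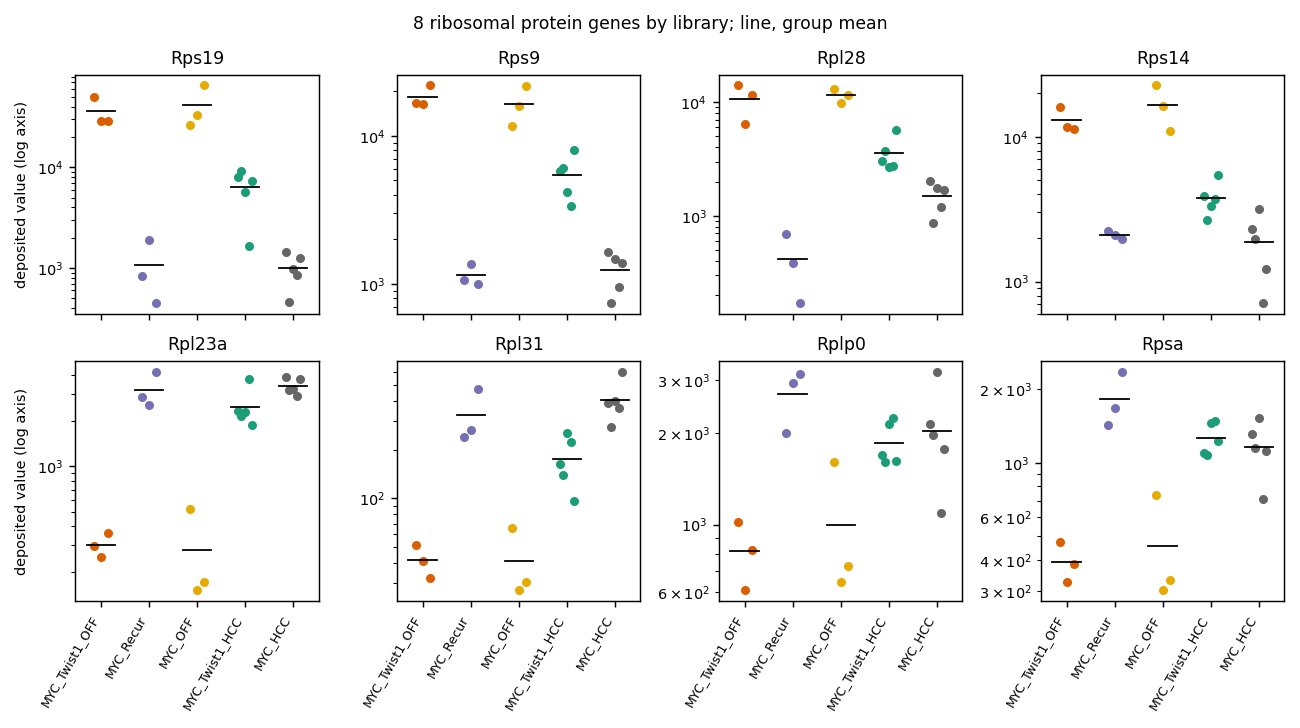
Deposited values (log axis) of 8 members in every library, 1 point per library, with a line at the group mean, for MYC_Twist1_OFF, MYC_Recur, MYC_OFF, MYC_Twist1_HCC and MYC_HCC. Rps19, Rps9, Rpl28 and Rps14 are highest in the OFF groups, while Rpl23a, Rpl31, Rplp0 and Rpsa are lowest there, and MYC_Recur overlaps an HCC group in all but Rpl28, where it is lowest.

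The share of a library's summed values in all 78 members was 22.0% to 28.3% in MYC_Twist1_OFF, 20.4% to 24.4% in MYC_Recur, 22.3% to 29.9% in MYC_OFF, 22.4% to 24.4% in MYC_Twist1_HCC and 14.5% to 24.3% in MYC_HCC, where the lowest was MYC_HCC 4. The 9 members called higher in MYC_OFF made up 14.9% to 19.8% in MYC_Twist1_OFF, 1.36% to 2.06% in MYC_Recur, 16.1% to 22.8% in MYC_OFF, 3.48% to 6.90% in MYC_Twist1_HCC and 1.53% to 2.47% in MYC_HCC. The other 69 made up 6.58% to 8.53% in MYC_Twist1_OFF, 18.3% to 23.1% in MYC_Recur, 5.65% to 11.1% in MYC_OFF, 16.8% to 20.3% in MYC_Twist1_HCC and 13% to 21.9% in MYC_HCC. Rps19 alone held 5.41% to 8.56% in MYC_Twist1_OFF and 4.41% to 11.6% in MYC_OFF, against 0.289% to 1.76% in MYC_Twist1_HCC and 0.0847% to 0.252% in MYC_HCC. These 9 were chosen on the MYC_OFF and MYC_HCC libraries, so their shares there are a description. Whether deposited values were divided by gene length is not given in the sources used here, so they do not rank genes.

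**Figure D4:**
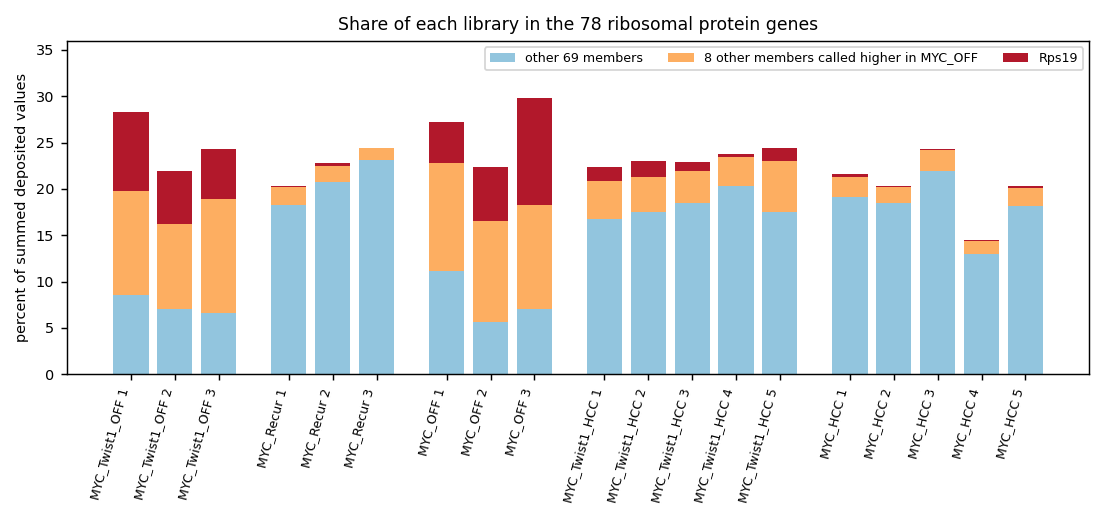
Percent of each library's summed deposited values in Rps19 (red), in the 8 other members called higher in MYC_OFF against MYC_HCC (orange) and in the other 69 members (blue), 1 bar per library. The total stays between 14.5% and 29.9%, while the orange and red parts take most of it in the 6 OFF libraries.

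The MYC_OFF libraries were not alike in the members that fell: MYC_OFF 1 had the highest of the 3 values for 50 of the 55, and without it 59 members were lower and 7 higher. Leaving out MYC_OFF 2 gave the fewest lower calls, 47. Hepatocyte markers moved with the majority, as 7 of 8 were lower in MYC_OFF against MYC_HCC and 6 of 8 in MYC_Twist1_OFF against MYC_Twist1_HCC. Beside these and the marker counts below, 39.4% of all tested genes were lower and 18.9% higher in the first comparison. In the second, 33.5% were lower and 13.1% higher. Summed endothelial markers were 63.6 to 110 in MYC_Twist1_OFF and 29.0 to 83.9 in MYC_OFF, against 8.89 to 20.4 in MYC_Twist1_HCC and 10.9 to 79.5 in MYC_HCC. Most of the OFF sums came from 1 gene (up to 106.5 in MYC_Twist1_OFF and 81.6 in MYC_OFF): of the 4 endothelial markers tested, 1 was higher and 2 lower in MYC_OFF against MYC_HCC (median log2 fold change -0.51), and 1 was higher and 1 lower in MYC_Twist1_OFF against MYC_Twist1_HCC (median -0.31). Summed T and NK cell markers were 7.75 to 9.52 in MYC_Twist1_OFF and 4.31 to 18.1 in MYC_OFF, against 1.95 to 5.04 in MYC_Twist1_HCC and 1.96 to 3.07 in MYC_HCC, and of 3 tested, 2 were higher in MYC_OFF against MYC_HCC and 1 in MYC_Twist1_OFF against MYC_Twist1_HCC. The part of cell makeup in the result was not tested, and in bulk tumors fewer cells of a type and less RNA per cell cannot be told apart.

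MYC_Recur tumors differed from MYC_OFF tumors, within the libraries not marked re-analyzed, in the opposite sense: most members were higher and a few were many times lower. In MYC_Recur against MYC_OFF, 62 of 78 members rose and 8 fell, where 37.5% and 12.0% of all tested genes did so. The median log2 fold change was 1.70 over members and 0.45 over all tested genes. The comparison shares the MYC_OFF libraries with MYC_OFF against MYC_HCC, so the 2 are not independent. Median-of-ratios scaling gave 45 members higher and 11 lower, with medians of 1.02 over members and -0.09 over all tested genes. Under that scaling, 2749 of all tested genes were called higher and 3068 lower.

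The 8 that fell included Rps19 (log2 fold change -5.42, adjusted p = 3.67e-06), Rpl28 (-5.01, adjusted p = 8.8e-07), Rps9 (-3.80, adjusted p = 1.31e-06), Rps14 (-2.93, adjusted p = 4.45e-05), Rps25 (-2.43, adjusted p = 2.54e-05), Rpl27a (-1.94, adjusted p = 0.000167) and Rpl24 (-1.82, adjusted p = 0.00292). Rpl27a had 1324, 1428 and 969 in MYC_Recur, against 4081, 5506 and 4580 in MYC_OFF, and Rpl24 had 1728, 857 and 1642 in MYC_Recur, against 2604, 5480 and 7452 in MYC_OFF. The groups did not overlap in any of these 7 genes, which is a description, since the genes were called on the same libraries. Rps14, Rpl27a and Rpl24 fall outside the naming rule for this comparison and were named after their values were seen.

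Rpl23a rose the most, by a log2 fold change of 3.72 (SE 0.383, adjusted p = 1.62e-06), followed by Rpl31 at 2.99 (SE 0.388, adjusted p = 9.14e-06) and Rpl27 at 2.71 (SE 0.337, adjusted p = 6.15e-06). Rpl27 had 460, 413 and 563 in MYC_Recur, against 127, 46.6 and 61.9 in MYC_OFF. Rpl36a, at a log2 fold change of 2.04 (adjusted p = 1.46e-05), had 2187, 2216 and 2767 in MYC_Recur, against 832, 447 and 518 in MYC_OFF. In each of these 4 genes, called on the same libraries, every MYC_Recur library was above every MYC_OFF library. The stalk genes Rplp0, Rplp1 and Rplp2 rose by 1.54, 1.72 and 2.10, Rpsa by 2.08 and Rps6, the target of the S6 kinases, by 2.11, on the log2 scale. Rps6 was named after its values were seen. The Rplp0 call was lost under median-of-ratios and upper-quartile scaling (highest adjusted p = 0.0713). All 26 small-subunit and 36 large-subunit members that rose had log2 fold changes of at least 0.94. Hepatocyte markers rose with them, 7 of 8, where 37.5% of all tested genes rose.

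MYC_Recur and MYC_HCC tumors differed in few members. In MYC_Recur against MYC_HCC, 1 member rose and 2 fell, where 6.90% and 3.93% of all tested genes did so, and the median log2 fold change was 0.28 over members and 0.08 over all tested genes. Rpl28 fell by 2.02 on the log2 scale (SE 0.415, adjusted p = 0.00483), with 690, 383 and 169 in MYC_Recur, against 857 to 2038 in MYC_HCC. Rpl21 had 341, 636 and 406 in MYC_Recur, against 1085, 760, 960, 720 and 981 in MYC_HCC, a log2 fold change of -1.0 (adjusted p = 0.0288). Rpl22, a 60S protein that binds viral and cellular RNA outside the ribosome, had 567, 724 and 797 in MYC_Recur, against 387, 365, 511, 199 and 254 in MYC_HCC, a log2 fold change of 1.08 (adjusted p = 0.0338). The groups did not overlap in these 3 genes, which were called on the same libraries. However, the Rpl21 and Rpl22 calls were lost when MYC_HCC 4 and 5 were left out, which gave 0 higher and 1 lower. Rpl21 was also lost without MYC_HCC 1, 3 or 5 or MYC_Recur 1 or 3 (adjusted p up to 0.129 over all alternatives), and Rpl22 without MYC_HCC 4 or 5 or MYC_Recur 2 or 3 and under median-of-ratios scaling (up to 0.182).

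Rps19 and Rps9 had log2 fold changes of -0.05 (95% interval -1.23 to 1.13) and -0.06 (-0.77 to 0.65) in MYC_Recur against MYC_HCC, and neither was called. Group and the re-analyzed mark cannot be told apart in this comparison.

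Few members differed between the HCC groups, at shares near those of all genes. In MYC_Twist1_HCC against MYC_HCC, 4 members rose and 1 fell, where 3.20% and 3.23% of all tested genes did so, and the medians were 0.00 over members and -0.01 over all tested genes. The comparison shares the MYC_HCC libraries with MYC_OFF against MYC_HCC, so nothing is read from the members that both call. Rps19 rose by 2.57 (SE 0.486, adjusted p = 0.00528), Rps9 by 2.14 (SE 0.294, adjusted p = 0.00042) and Rpl27a by 1.36 (SE 0.266, adjusted p = 0.00642) on the log2 scale. Rpl27a, whose human protein carries a hydroxylated histidine, had 3440, 2665, 2353, 2796 and 4562 in MYC_Twist1_HCC, against 1305, 961, 1921, 822 and 1244 in MYC_HCC. Rpl28 rose by 1.25 (adjusted p = 0.0445), and Rpl31 fell by 1.24 (adjusted p = 0.0205). In all 5 genes the groups did not overlap. They were called on these same libraries, so the separation is a description and no further evidence. The Rpl28 call was lost in 10 of 19 leave-one-out fits (adjusted p up to 0.129), and that of Rpl31 without MYC_HCC 5, MYC_Twist1_HCC 1 or MYC_Twist1_HCC 5 (up to 0.098). Both were lost when MYC_HCC 4 and 5 were left out. Rps14 and Rps25 had log2 fold changes of 1.16 and 0.90 and missed the threshold (adjusted p = 0.0546 and 0.0552).

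No member differed between the OFF groups at the threshold. In MYC_Twist1_OFF against MYC_OFF, 0 of 78 members were called higher and 0 lower with limma, where 0% and 0.00755% of all tested genes were called; at an unadjusted p under 0.05, 1 was higher (Rps27l, log2 fold change 0.84, 95% interval 0.10 to 1.58) and 0 lower. The median log2 fold change was -0.16 over members and 0.06 over all tested genes. The 95% interval of Rps19 ran from -1.46 to 1.17 and that of Rpl23a from -0.47 to 1.14, so equal levels are not shown.

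The interaction is the fold change of MYC_Twist1_OFF over MYC_Twist1_HCC less that of MYC_OFF over MYC_HCC. It called 0 members higher and 0 lower, where 0.0226% and 0.0755% of all tested genes were called; at an unadjusted p under 0.05, 1 member was higher and 5 lower. These were Rpl31 (1.34, adjusted p = 0.542) and, on the lower side, Rps9 (-1.95, adjusted p = 0.229), Rps19 (-2.72, adjusted p = 0.421), Rpl27a (-1.33, adjusted p = 0.482), Rps14 (-1.47, adjusted p = 0.57) and Rpl28 (-1.43, adjusted p = 0.604). The smaller log2 fold changes of Rps19 and Rps9 in the Twist1-labelled pair are therefore not shown to differ from those in the MYC pair.

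Ribosomal genes whose symbols fall outside the selection mostly had the direction of the majority. Over all tested genes, 39.4% were lower in MYC_OFF against MYC_HCC and 33.5% in MYC_Twist1_OFF against MYC_Twist1_HCC. In MYC_Recur against MYC_OFF, 37.5% were higher. Of 8 such ribosomal genes tested, 7 were lower in both OFF comparisons and higher in MYC_Recur against MYC_OFF. They included Fau, whose protein is made as a fusion with a ubiquitin-like protein, Gnb2l1, which encodes the 40S scaffold RACK1, Rps3a1, Rpl22l1, Rpl7l1 and Rpl36al. Gnb2l1 had 53.6, 97.8 and 59.2 in MYC_Twist1_OFF, 840, 479 and 545 in MYC_Recur, 123, 82.9 and 65.5 in MYC_OFF, 434, 488, 468, 572 and 325 in MYC_Twist1_HCC, and 943, 1146, 717, 435 and 688 in MYC_HCC. Its log2 fold change was -3.08 in MYC_OFF (adjusted p = 4.18e-07) and -2.71 in MYC_Twist1_OFF (adjusted p = 4.31e-06) against their HCC groups. Rps19bp1, a nucleolar binding partner of Rps19, was not called, with log2 fold changes of 0.51 and 0.21.

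A list of other TOP mRNAs held elongation and initiation factors, RNA-binding proteins, and Tpt1, Nap1l1, Naca and Btf3. Of its 15 genes, 11 were lower and 1 higher in each OFF comparison, and 11 were higher and 1 lower in MYC_Recur against MYC_OFF. The exception each time was Eef1b2, a subunit of the exchange factor of eEF1A, with log2 fold changes of 2.77 in MYC_OFF against MYC_HCC (adjusted p = 1.37e-06), 1.84 in MYC_Twist1_OFF against MYC_Twist1_HCC (adjusted p = 0.000169) and -2.84 in MYC_Recur against MYC_OFF (adjusted p = 6.37e-06). It was also the gene of this list that rose in MYC_Twist1_HCC against MYC_HCC (1.34, adjusted p = 0.00803). Pabpc1, the cytoplasmic poly(A)-binding protein, had -2.89 and -3.23 in the OFF comparisons, and Eef1a1 had 0.10 and -0.17 and was not called. Among all tested genes, 39.4% were lower and 18.9% higher in MYC_OFF against MYC_HCC. The shares were 33.5% and 13.1% in MYC_Twist1_OFF against MYC_Twist1_HCC. In MYC_Recur against MYC_OFF, 37.5% were higher and 12.0% lower.

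The members that rose and those that fell in MYC_OFF were also set side by side by their gene models in the GENCODE annotation of GRCm38. Of the 78 members, 69 have at least 1 other annotated gene whose transcript matches at 95% identity or more over at least 90% of the coding sequence, with a median of 5 such copies, so reads of most members may have been divided. Among the 9 that rose, 7 have such a copy with a median of 3, Rps19 having 0 and Rps9 1; among the 55 that fell, 49 do with a median of 6. The shortest annotated transcript had a median of 350 bases (range 286 to 400) in the 9 and 443 bases (176 to 824) in the 55. Of the 9, 4 lie on chromosome 7 (Rps19, Rps9, Rpl28 and Rpl27a), as do 7 of the 55. Small nucleolar RNA genes, which guide rRNA modification, lie inside 3 of the 9 and 24 of the 55. Whether any of these features bears on the differences was not tested.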

How the data were processed

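The deposited table holds a normalized signal for each gene symbol and library. The submitters' processing notes name mm10 and, in no stated order, DESeq2, featureCounts, Picard, STAR and Trimmomatic; versions and the formula behind the signal were not given in the sources used here. Of 19511 symbols, 25 bare numbers were left out. The values are not counts, so the count test planned for counts was not used. Genes at 1 or more in at least 3 libraries (13253) were tested with limma 3.58.1 (R 4.3.3, trend) on log2(value + 1), in 1 fit of 5 group means with 14 residual degrees of freedom; fold changes on this scale understate changes of low genes. Two-sided p-values were adjusted (Benjamini-Hochberg) over all tested genes. The fit was tested on simulated data. It recovered from 5% of 2-fold shifts, in the interaction, to 58%, in MYC_Twist1_HCC against MYC_HCC. Recovery was 21% in MYC_Twist1_OFF against MYC_OFF and 35% in MYC_Recur against MYC_HCC, so few or no calls there do not show equal levels. For 4-fold shifts it ran from 67%, in the interaction, to 93%, in MYC_Twist1_HCC against MYC_HCC. Near copies were sought with BLAST 2.17.0. Named members were Rplp0, Rplp1, Rplp2, Rpsa, the paralogs, the 2 members nearest the filter, and per comparison the 4 called members with the smallest adjusted p in each direction; exceptions are stated, and some genes the rule names are not reported here. The members, lists and rules were chosen with earlier results of these data known. Alternatives were 3 scalings, a pseudocount of 0.1, no filter, only the compared groups, a replicate block, each library left out, and MYC_HCC 4 and 5 left out.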

Additional observations from a re-analysis of the deposited data

Results flagged for a closer look

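Among the ribosomal protein genes that the naming rule picks, the highest library of a group of 5 stood apart from the other 4 by more than Dixon's 95% critical value of 0.71 of the group's range in 3 cases, which chance gives in about 1 in 20 groups. Rpl23a was 3795 in MYC_Twist1_HCC 4, against 1890 to 2329 in the other 4. Rpl39l was 1.74 in MYC_Twist1_HCC 5 and listed at 0 in the other 4. Rpl10l was 0.05 in MYC_HCC 2 and listed at 0 in the other 4. When the other 4 are at 0, any value above 0 passes the limit, so the Rpl39l and Rpl10l flags say nothing about outliers. The chance share holds for normally distributed values, and the flags expected over all groups examined were not counted.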

How the results depend on the processing

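No called fold change or count reversed under any alternative, while some fold changes that were not called changed sign. Counts of members called higher and lower kept within 1.5 times in the OFF comparisons and MYC_Recur against MYC_OFF. In MYC_Twist1_HCC against MYC_HCC, a fit of only these groups called 7 higher, and leaving out MYC_HCC 4 and 5 left 0 lower. In MYC_Recur against MYC_HCC, median-of-ratios scaling, a fit of only these groups, the replicate block and leaving out MYC_HCC 4 and 5 each called 0 higher, and the last 2 called 1 lower. The cause was not tested. With each library left out in turn, MYC_Twist1_HCC against MYC_HCC gave 3 to 6 higher and 0 to 2 lower; MYC_OFF against MYC_HCC 7 to 9 and 47 to 59; MYC_Twist1_OFF against MYC_Twist1_HCC 5 to 7 and 55 to 60; MYC_Recur against MYC_OFF 57 to 62 and 7 to 10; MYC_Recur against MYC_HCC 0 to 2 and 1 to 2; MYC_Twist1_OFF against MYC_OFF and the interaction 0 throughout. Replicate numbers were not used as pairs in the main fit. Over 32 same-numbered pairs, deviations correlated between -0.21 and 0.38, with 10 over 0.1. Those of MYC_Twist1_HCC with MYC_Twist1_OFF correlated at 0.01, 0.23 and 0.38. Pairs with different numbers were not examined, so pairing is neither shown nor excluded. The replicate block lost the Rpl21 and Rpl22 calls in MYC_Recur against MYC_HCC. Depth is unknown, and 3 libraries a group limit the precision.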
